A study of Mus musculus with 27 samples.

Results

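The genes described here are 5 ligands of the fibroblast growth factor (Fgf) family, Fgf4, Fgf5, Fgf8, Fgf10 and Fgf15, with 4 genes that Fgf signalling is known to raise, Spry4, Dusp6, Etv4 and Etv5. They are 9 of the 13297 genes tested. Each was found by the gene symbol that the platform annotation gives its probe sets, and was represented by 1 probe set, that of the highest mean on the 27 arrays, while the gene's other probe sets served as a check. The study followed mouse AB2.2 embryonic stem cells as they differentiated in embryoid bodies, on Affymetrix arrays. All cells had been transduced with a lentivirus that carries enhanced green fluorescent protein (eGFP) and a short hairpin RNA (shRNA), and were flow-sorted for the fluorescence. The hairpin was directed either at Sox17, an endoderm transcription factor, or at firefly luciferase, which mouse cells lack and which served as the control. Embryoid bodies were formed in hanging drops and later plated. RNA of both arms was taken on day 0, on the even days 2 to 10, and on day 5. Each of the 14 groups of arm and day had 2 arrays, except the Sox17 shRNA arm at day 0, which had 1. Both arms were one cell line with a virus, so the control is not untransduced cells, and the labels do not say how many hairpin sequences were used. Nothing in the labels says that 2 replicates came from separate cultures, so the p-values measure only the spread between these arrays, which may be technical. All levels below are log2 signal, 1 unit being a doubling, and levels are compared only within a probe set.

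Fgf ligands bind receptor tyrosine kinases, which pass the signal through Ras and the kinase ERK to transcription factors in the nucleus. ERK activity raises its own inhibitors and the ETS-family activators Etv4 and Etv5, so the transcripts of Spry4, Dusp6, Etv4 and Etv5 are widely used as a readout of Fgf input. In the mouse embryo and in embryonic stem cells, Fgf4 drives exit from the naive state, Fgf5 marks the epiblast before gastrulation, Fgf8 is expressed in the primitive streak and is needed for cells to leave it, and Fgf10 marks progenitors of the second heart field. The title of the series names Hhex and Cer1 as mediators of a Sox17 pathway to cardiac mesoderm, and the comparison of the arms bears on what Sox17 knockdown changes in that setting.

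The knockdown was partial and uneven between arrays. Sox17 stood at 10.30 and 10.66 in the control arm at day 4, and at 5.53 and 9.39 in the Sox17 shRNA arm. At day 5 it stood at 10.38 on both control arrays and at 7.77 and 10.08 on the Sox17 shRNA arrays. The library labelled Sox17 shRNA day 5 replicate 2 thus lay close to control for the targeted gene. At day 6 the arms overlapped, at 8.60 and 9.39 against 9.83 and 9.35 (difference -0.60, SE 0.80, adjusted p = 0.835), so a reduction of Sox17 was not detected on that day. The arm difference of Sox17 was also not past the threshold at day 5 (-1.45, SE 0.80, limma adjusted p = 0.307) or day 8 (-1.88, adjusted p = 0.250). It was past the threshold at day 4 (-3.02, adjusted p = 0.0377) and day 10 (-3.03, adjusted p = 0.0205). Averaged over days 4 to 10 it was -2.0 (SE 0.36, adjusted p = 3.63e-04). The mean level of 10 naive pluripotency genes was 10.23 to 10.27 in the control arm at day 0 and 6.13 to 6.19 at day 10, and in the Sox17 shRNA arm it was 9.86 and then 6.44 to 6.61. That of 9 cardiac muscle genes was 4.99 to 5.01 at day 0 and 10.11 to 10.13 at day 10 in the control arm, against 4.98 and then 7.0 to 7.18 in the Sox17 shRNA arm. The AFFX-BioB hybridisation spike-in read 8.86 to 9.37 on the arrays of days 0 and 2 and on replicate 1 of day 4 in both arms, and 6.19 to 7.67 on the others. Changes between days 0 and 2 thus lie within one level of that signal, while changes from those days to day 5 and later go with a change of it, and day 4 holds both levels in both arms. Among the actin probe sets, which report on RNA degradation, the 3' end exceeded the 5' end most on Sox17 shRNA replicate 2 of day 4 (by 0.862) and of day 6 (by 0.753), and by at most 0.548 on the other arrays. In whole embryoid bodies, fewer cells that express a gene and less RNA per cell cannot be told apart.

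Promoter windows of 300 bases, from 250 before to 50 after the transcription start, were taken from the RefSeq table (GRCm38.p6) for 5 of the 9 members. The windows of Dusp6 and Etv5 are shown because both genes crossed from higher to lower than control between days 5 and 6. That of Fgf5 is shown because, of the windows taken, it alone held the longer motif CCGGAA. Capitals mark the ETS core GGAA, or TTCC where it lies on the other strand, which is the motif that Etv4 and Etv5 are known to recognise.
Dusp6, chr10:99262981-99263280, plus strand: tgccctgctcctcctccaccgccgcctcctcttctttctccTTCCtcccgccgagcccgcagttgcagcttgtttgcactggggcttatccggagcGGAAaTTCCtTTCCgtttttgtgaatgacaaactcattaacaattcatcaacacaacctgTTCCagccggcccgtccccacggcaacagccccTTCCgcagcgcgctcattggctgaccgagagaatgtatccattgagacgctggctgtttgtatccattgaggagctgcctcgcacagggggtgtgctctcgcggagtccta
Etv5, first window, chr16:22439521-22439820, minus strand: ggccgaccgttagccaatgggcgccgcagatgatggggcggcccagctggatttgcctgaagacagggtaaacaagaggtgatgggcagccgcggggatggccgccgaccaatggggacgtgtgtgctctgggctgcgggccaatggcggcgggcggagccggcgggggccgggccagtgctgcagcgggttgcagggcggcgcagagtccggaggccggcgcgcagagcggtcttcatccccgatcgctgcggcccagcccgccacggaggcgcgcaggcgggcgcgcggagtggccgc
Etv5, second window, chr16:22438319-22438618, minus strand: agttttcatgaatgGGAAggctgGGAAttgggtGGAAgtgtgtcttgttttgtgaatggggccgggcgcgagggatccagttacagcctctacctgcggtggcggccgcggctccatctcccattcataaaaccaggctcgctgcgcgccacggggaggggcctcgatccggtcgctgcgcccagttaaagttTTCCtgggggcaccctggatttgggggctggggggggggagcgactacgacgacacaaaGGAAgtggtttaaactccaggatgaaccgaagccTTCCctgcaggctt
Fgf5, chr5:98253934-98254233, plus strand: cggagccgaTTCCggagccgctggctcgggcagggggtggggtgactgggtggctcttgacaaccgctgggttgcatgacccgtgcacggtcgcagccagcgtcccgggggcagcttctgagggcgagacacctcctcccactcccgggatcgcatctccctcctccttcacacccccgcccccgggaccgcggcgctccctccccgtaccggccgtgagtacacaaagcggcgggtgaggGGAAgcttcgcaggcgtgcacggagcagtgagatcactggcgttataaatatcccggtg
The Dusp6 window held 6 GGAA cores on both strands together, the Etv5 windows 0 and 6, and the Fgf5 window 2. The windows of Fgf10 and Fgf4, not shown, held 3 and 0. Of 32851 promoter windows in the table, 96.0% held at least 1 GGAA, a motif counted after the values were seen, and 14.9% held CCGGAA, which contains GGAA. A match describes letters in a window and is not a binding site.

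In the control arm the ligands came and went in sequence. Fgf4 was highest at day 0, Fgf15 at day 2, and Fgf5, Fgf8 and Fgf10 at day 4. By the adjusted p of the limma fit, 5 of the 9 members differed from day 0 at day 2, where 32.1% of all genes did. The count was 8 at days 4, 5, 6 and 8, where 46.1%, 57.4%, 63.1% and 72.2% of all genes did, and 7 at day 10, where 71.5% did. The members' count against day 0 is therefore read as part of a broad change. Between days 2 and 4, 32.5% of all genes differed. Against day 0, the calls of Fgf8 at days 2 and 10, Etv4 at day 4 and Dusp6 at day 5 were each lost whichever array was left out. Those of Spry4 at day 4, Fgf8 at day 5 and Fgf10 at days 5 and 6 were each lost without 1 or 2 particular arrays.

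Fgf4, the ligand made by undifferentiated stem cells, read 8.81 and 8.62 in the control arm at day 0. It read 7.87 and 7.79 at day 2, 6.88 and 6.81 at day 4, and between 6.34 and 6.71 on every control array from day 5 on. The days before day 5 did not overlap one another, and after that only days 5 and 6 overlapped. The fall from day 0 was 1.85-fold at day 2 (adjusted p = 1.63e-04) and 5.05-fold at day 10 (log2 difference -2.34, SE 0.15, adjusted p = 3.03e-10). The Sox17 shRNA arm also had its highest levels on days 0 and 2, at 8.53 on its single day 0 array, 8.01 and 7.86 at day 2 and 6.34 to 7.05 from day 4 on. The arm difference was not past the threshold on any of the 7 days, and lay between -0.22 at day 6 and 0.13 at day 10.

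Fgf5 showed the widest span of the members. It read 3.69 and 3.61 in the control arm at day 0, 9.31 and 9.32 at day 2, then 10.36 and 9.92 at day 4. It then read 7.95 and 8.07 at day 5, 7.0 and 7.29 at day 6, 5.76 and 5.34 at day 8, then 5.47 and 5.40 at day 10. Only days 8 and 10 overlapped. The rise to day 4 was 90.0-fold (log2 difference 6.49, SE 0.36, adjusted p = 1.31e-10), and the fall from day 4 to day 5 was 4.38-fold (adjusted p = 0.00145). In the Sox17 shRNA arm Fgf5 read 4.47 at day 0, 9.04 and 9.23 at day 2, then 10.56 and 9.91 at day 4. It then read 8.78 and 8.55 at day 5, 6.44 and 6.96 at day 6, 4.54 and 5.47 at day 8, then 4.21 and 5.72 at day 10. The 4 arrays of day 5 did not overlap between arms, but the difference of 0.66 (SE 0.36, adjusted p = 0.309) was not past the threshold, nor was that of any other day.

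Fgf8, Fgf10 and Fgf15 had narrower peaks. Fgf8 read 3.91 and 3.99 in the control arm at day 0, 4.87 and 4.98 at day 2, then 7.19 and 7.46 at day 4. It read 4.93 and 5.09 at day 5, 5.91 and 5.73 at day 6, 5.34 and 5.11 at day 8 and 4.79 and 4.73 on the day 10 arrays. Day 4 stood apart from every other control day, and only days 5 and 2 overlapped. The rise from day 2 to day 4 was 5.26-fold (adjusted p = 3.65e-05) and the fall to day 5 was 4.96-fold (log2 difference -2.31, SE 0.33, adjusted p = 3.56e-04). Fgf8 was above the low-value cut of 5.53 on only 8 of the 27 arrays, and Fgf10 on 6, so both were tested because of the groups where they were high.

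Fgf10 read 4.40 and 4.88 in the control arm at day 0, 4.61 and 4.84 at day 2, then 6.14 and 6.33 at day 4. It read 5.18 and 5.49 at day 5, 5.22 and 5.13 at day 6, 5.51 and 5.53 at day 8, then 4.86 and 5.03 at day 10. Day 4 stood above all other control days, while days 5 and 6 overlapped, as did day 0 with days 2 and 10. The rise from day 2 to day 4 was 2.85-fold (adjusted p = 6.27e-06) and the fall to day 5 was 1.87-fold (adjusted p = 0.00421), a call that did not hold when control day 5 replicate 1 was left out (adjusted p = 0.0962).

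Fgf15, the mouse counterpart of human FGF19, read 6.16 and 6.25 in the control arm at day 0 and 8.53 and 8.47 at day 2. It read 6.79 and 6.70 at day 4, 6.11 and 6.15 at day 5, 6.69 and 6.50 at day 6, and 6.62 to 6.64 on the 4 arrays of days 8 and 10. Day 2 stood above every other day, and the level was lowest at days 5 and 0, which did not overlap. The rise to day 2 was 4.90-fold (log2 difference 2.29, SE 0.25, adjusted p = 1.55e-06) and the fall to day 4 was 3.37-fold (adjusted p = 4.94e-05).

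Among the feedback genes, Spry4, Etv4 and Etv5 were highest in the undifferentiated cells, and each was lowest in the control arm at day 5. Dusp6 had the opposite course from day 0, with a dip at day 5. From day 4 to day 5 in the control arm, 6 of the 9 members fell (Fgf5, Fgf8, Fgf10, Spry4, Etv4 and Etv5) and none rose, where 10.2% of all genes were called and 6.17% fell. Those of Fgf5, Fgf8 and Etv5 held without any 1 of their arrays. From day 5 to day 6 in the control arm, 1 member, Etv5, rose, where 17.9% of all genes were called.

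Spry4, an inhibitor of Ras and ERK signalling, read 8.91 and 8.85 at day 0, 7.85 and 7.81 at day 2, then 7.13 and 7.68 at day 4 in the control arm. It read 5.97 and 5.76 at day 5, 6.84 and 6.89 at day 6, 7.19 and 6.79 at day 8, then 6.94 and 6.96 at day 10. Day 5 lay below every other control day, while days 4, 6, 8 and 10 overlapped in part. The fall from day 4 to day 5 was 2.91-fold (log2 difference -1.54, SE 0.41, adjusted p = 0.0221). Leaving out any single array of the 4 ended that call, with adjusted p between 0.0701 and 0.123. The difference of 1.0 from day 5 to day 6 was not past the threshold (adjusted p = 0.0997).

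Dusp6, the phosphatase that removes the activating phosphates from ERK, read 8.04 and 7.96 at day 0, 9.94 and 9.82 at day 2, then 9.88 and 9.90 at day 4. It read 8.86 and 8.87 at day 5, 9.85 and 9.73 at day 6, 10.14 and 10.35 at day 8, then 9.63 and 9.74 at day 10. Day 5 lay below all other control days but day 0, and days 2, 4, 6 and 10 overlapped in a chain. The rise from day 0 to day 2 was 3.68-fold (log2 difference 1.88, SE 0.33, adjusted p = 2.63e-04). The differences of -1.02 into day 5 (adjusted p = 0.0582) and 0.93 out of it (adjusted p = 0.0618) were not past the threshold.

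Etv4, an ETS transcription factor, read 8.13 and 8.16 at day 0, 7.94 and 8.04 at day 2, then 7.64 and 7.62 at day 4 in the control arm. It read 6.76 and 6.71 at day 5, 6.86 and 6.89 at day 6, 7.03 and 7.13 at day 8, then 6.90 and 6.99 at day 10. No 2 of the control days overlapped, and day 5 was the lowest. The fall from day 4 to day 5 was 1.86-fold (log2 difference -0.90, SE 0.19, adjusted p = 0.00786), and the call was lost without replicate 1 of day 4 (adjusted p = 0.0701) or of day 5 (adjusted p = 0.0740).

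Etv5, a close relative of Etv4, read 10.88 and 10.83 at day 0, 10.59 and 10.83 at day 2, then 9.38 and 9.64 at day 4. It read 8.01 and 8.24 at day 5, 9.33 and 9.01 at day 6, 8.91 and 8.77 at day 8 and 8.67 on both arrays at day 10. Day 5 was the lowest and none of the control days from day 4 on overlapped. The fall from day 4 to day 5 was 2.61-fold (log2 difference -1.38, SE 0.19, adjusted p = 3.03e-04) and the rise from day 5 to day 6 was 2.06-fold (log2 difference 1.04, SE 0.19, adjusted p = 0.00122).

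**Figure D1:**
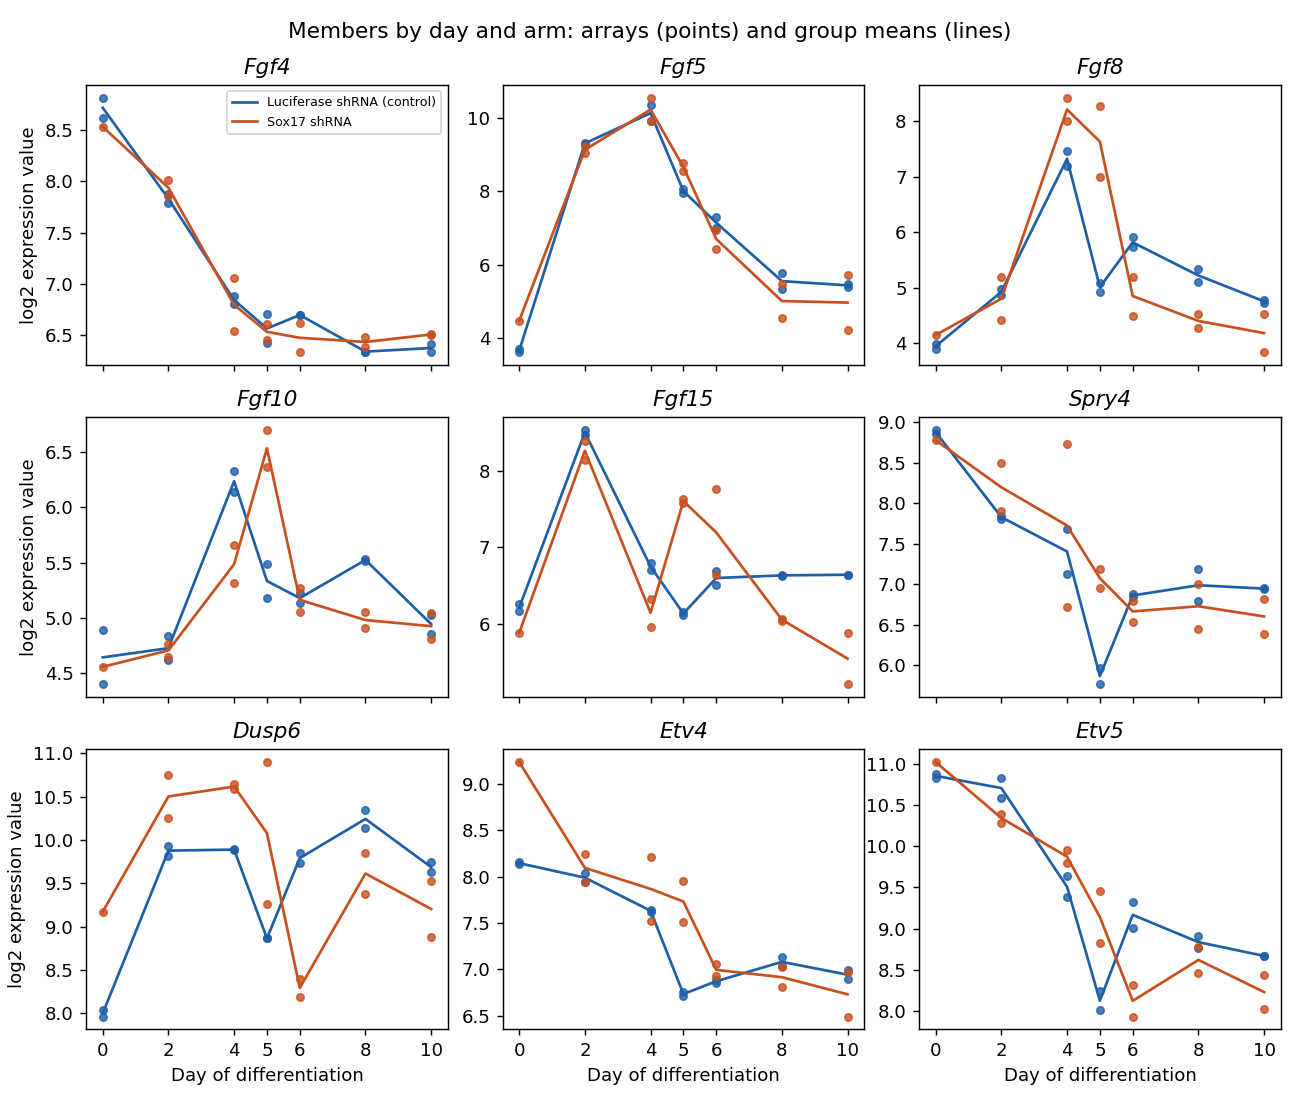
Levels of the 9 members (vertical axes, log2 signal) by day of differentiation (horizontal axes), with 1 point for each array and lines through the means of the control and Sox17 shRNA arms. In the control arm Fgf8 peaked at day 4 and read 4.93 and 5.09 at day 5, where the Sox17 shRNA arrays read 8.27 and 7.0.

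At day 5 the members stood higher in the Sox17 shRNA arm. Of the 9, 6 were called higher and none lower (Fgf8, Fgf10, Fgf15, Dusp6, Etv4 and Etv5). Of all genes, 9.39% were called, made up of 6.15% of all genes called higher and 3.24% called lower. The median difference was 1.20 over the members and 0.0024 over all genes. On 8 of the 9, all but Fgf4, both Sox17 shRNA arrays lay above both control arrays, as they did for 27.7% of all genes. The count called ran from 3 without Sox17 shRNA replicate 1 to 6 without replicate 2, the array on which Sox17 was near control, and was 4 and 5 without control replicates 1 and 2.

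Fgf8 differed most of the members. It read 8.27 and 7.0 in the Sox17 shRNA arm at day 5 against 4.93 and 5.09 in the control arm. The 4 arrays were well apart, and the difference was 6.15-fold (log2 difference 2.62, SE 0.33, adjusted p = 1.53e-04). Leaving out each of the 4 arrays in turn kept it between 1.99 and 3.26 with adjusted p of at most 0.00514.

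Fgf10 read 6.37 and 6.70 in the Sox17 shRNA arm at day 5 against 5.18 and 5.49, a 2.30-fold difference (log2 difference 1.20, SE 0.18, adjusted p = 4.72e-04). At day 4 it had been lower in that arm, at 5.31 and 5.65 against 6.14 and 6.33 (log2 difference -0.75, SE 0.18, adjusted p = 0.0204). The Sox17 shRNA array was the lower one at both levels of the spike-in on that day. The peak of Fgf10 was thus at day 4 in the control arm and at day 5 in the Sox17 shRNA arm, where the rise from day 4 to day 5 was 2.07-fold (adjusted p = 0.00349). The call at day 4 did not survive the removal of control replicate 1 or 2 or Sox17 shRNA replicate 1 (adjusted p = 0.0553, 0.123 and 0.114) and with array weights (adjusted p = 0.610), whereas the day 5 call was kept without any 1 of its arrays.

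Fgf15 read 7.58 and 7.62 in the Sox17 shRNA arm at day 5 against 6.11 and 6.15, a 2.77-fold difference (log2 difference 1.47, SE 0.25, adjusted p = 0.00156). From day 4, where it read 6.33 and 5.96, it rose 2.75-fold in that arm (adjusted p = 0.00378). At day 6 the Sox17 shRNA arrays read 7.75 and 6.63 against 6.69 and 6.50. The difference of 0.60 was not past the threshold (adjusted p = 0.222). It was 1.16 without Sox17 shRNA replicate 2, which is in the pair of arrays highest in 3' to 5' difference. At day 10 Fgf15 was lower in the Sox17 shRNA arm, at 5.21 and 5.88 against 6.64 on both control arrays (log2 difference -1.10, SE 0.25, adjusted p = 0.00806). At day 10 the call was lost without either control array (adjusted p = 0.0632 in both cases) or Sox17 shRNA replicate 1 (adjusted p = 0.154).

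The feedback genes differed by about 1 log2 unit each at day 5. Spry4 read 7.19 and 6.96 in the Sox17 shRNA arm against 5.97 and 5.76. The arrays did not overlap, but the difference of 1.21 (SE 0.41, adjusted p = 0.0700) was not past the threshold. At day 4 its Sox17 shRNA replicates read 6.72 and 8.74, the widest gap of that gene, and the spread is shared over all days in the fit. Without both arrays of highest 3' to 5' difference, of which the day 4 array at 8.74 is 1, the same day 5 difference had an adjusted p of 0.00214. It was also past the threshold with array weights (adjusted p = 0.0173) and with the spike-in as a covariate (1.49, adjusted p = 0.0040).

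Dusp6 read 10.90 and 9.26 in the Sox17 shRNA arm at day 5 against 8.86 and 8.87. Both Sox17 shRNA arrays lay above both control arrays, and the difference was 2.32-fold (log2 difference 1.21, SE 0.33, adjusted p = 0.0281). It rested on 1 array, since Sox17 shRNA replicate 2 alone gave a difference of 0.39 (adjusted p = 0.514). The call was also lost without control replicate 1 or 2 (adjusted p = 0.153 and 0.120).

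Etv4 read 7.95 and 7.51 in the Sox17 shRNA arm at day 5 against 6.76 and 6.71, a 2.00-fold difference (log2 difference 1.0, SE 0.19, adjusted p = 0.00376). Etv5 read 9.46 and 8.83 against 8.01 and 8.24, a 2.02-fold difference (log2 difference 1.01, SE 0.19, adjusted p = 0.00340). For both genes the arms did not overlap. Without Sox17 shRNA replicate 1 the adjusted p was 0.0845 for Etv4 and 0.0854 for Etv5, and without control replicate 1 it was 0.0607 for Etv5.

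At day 6 the picture differed. Of the 9 members, 2 were called, Dusp6 and Etv5, both lower in the Sox17 shRNA arm, where 5.20% of all genes were called and 2.36% were lower. On 6 members both Sox17 shRNA arrays lay below both control arrays, as for 19.1% of all genes. Dusp6 read 8.40 and 8.19 in the Sox17 shRNA arm against 9.85 and 9.73 (2.83-fold lower, log2 difference -1.50, SE 0.33, adjusted p = 0.0106). Etv5 read 8.31 and 7.94 against 9.33 and 9.01 (2.06-fold lower, log2 difference -1.04, SE 0.19, adjusted p = 0.00291). The Dusp6 call was lost without control replicate 1 or 2 or Sox17 shRNA replicate 2 (adjusted p = 0.114, 0.0568 and 0.0646) and without both arrays of highest 3' to 5' difference (0.0573), and the Etv5 call without control replicate 1 (adjusted p = 0.0723).

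Fgf8 read 5.20 and 4.50 in the Sox17 shRNA arm at day 6 against 5.91 and 5.73, a difference of -0.97 that was not past the threshold (adjusted p = 0.114). Fgf10 read 5.27 and 5.05 against 5.22 and 5.13, overlapping. Etv4 read 6.93 and 7.06 against 6.86 and 6.89, and Spry4 6.53 and 6.80 against 6.84 and 6.89. Neither of these differences was past the threshold (0.12 and -0.20).

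Within the Sox17 shRNA arm the fall came between days 5 and 6. There 6 of the 9 members fell and none rose (Fgf5, Fgf8, Fgf10, Dusp6, Etv4 and Etv5), where 17.0% of all genes were called and 7.14% fell. Fgf8 fell 6.87-fold (log2 difference -2.78, SE 0.33, adjusted p = 3.10e-05), Dusp6 3.45-fold (log2 difference -1.79, adjusted p = 0.00152) and Fgf10 2.59-fold (adjusted p = 6.11e-05). The fall of Dusp6 was -0.97 without day 5 replicate 1 and -2.61 without day 5 replicate 2, both past the threshold. The Etv4 call was lost without replicate 1 of day 5 (-0.52, adjusted p = 0.200) and without either array of day 6 (adjusted p = 0.0639 and 0.0684). From day 4 to day 5, Fgf5 and Etv5 fell and Fgf10 and Fgf15 rose in that arm, where 5.62% of all genes were called. The Etv5 call was lost without day 5 replicate 2 (-0.42, adjusted p = 0.332) or either day 4 array (adjusted p = 0.0804 and 0.0625), and the Fgf5 call without day 4 replicate 1 or day 5 replicate 2 (adjusted p = 0.132 and 0.106). Dusp6 read 9.38 and 9.85 at day 8, a 2.50-fold rise from day 6 (adjusted p = 0.0138), where 12.6% of all genes were called between those days. The call was lost without either day 6 array (adjusted p = 0.0569 and 0.0662) or day 8 replicate 2 (adjusted p = 0.124). In the Sox17 shRNA arm the lowest means of Dusp6 and Etv5 were those of day 6. The day 6 levels of Dusp6 lay below those of every other day of that arm, while those of Etv5 overlapped with day 10.

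The change of the arm difference over days 4, 5, 6, 8 and 10 was tested itself. The moderated F test called 5 of the 9 members, where 4.84% of all genes were called. The F was 21.16 for Fgf8 (adjusted p = 2.34e-04), 18.44 for Fgf10 (adjusted p = 5.11e-04), 17.51 for Fgf15 (adjusted p = 6.50e-04), 16.38 for Etv5 (adjusted p = 9.21e-04) and 10.88 for Dusp6 (adjusted p = 0.00642). These 5 stayed past the threshold when each array was left out in turn. Etv4 was just outside the threshold (F 6.28, adjusted p = 0.0508), and Spry4, Fgf5 and Fgf4 were not past it (F 2.56, 2.0 and 0.87). Etv4 was past it with robust moderation (0.0490), aligned array medians (0.0413), array weights (0.00980), the spike-in covariate (0.0241) and without both arrays of highest 3' to 5' difference (0.00740), and Spry4 with the last pair of these settings (0.0373 and 0.00735). With single arrays left out, Etv4 also passed in 4 cases, each without a Sox17 shRNA array (0.00682 to 0.0251), and Spry4 without either Sox17 shRNA array of day 4 (0.00354 and 0.00795).

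The day 5 difference minus the day 6 difference, a comparison added after the values were seen, was 3.59 for Fgf8 (SE 0.47, adjusted p = 3.49e-04), 2.71 for Dusp6 (SE 0.47, adjusted p = 0.00613), 2.06 for Etv5 (SE 0.27, adjusted p = 4.34e-04) and 1.22 for Fgf10 (SE 0.25, adjusted p = 0.0234). These were the 4 members called, where 0.707% of all genes were called. Averaged over days 4 to 10 the arms did not differ for any member past the threshold, with 1 of 9 at an unadjusted p under 0.05, where 27% of all genes were called. The early and late differences had opposite signs: over days 4 and 5 the average was 1.75 for Fgf8, 0.97 for Dusp6 and 0.69 for Etv5, and over days 6, 8 and 10 it was -0.79, -0.87 and -0.57. All 6 were past the threshold, as were 17.0% and 21.3% of all genes in the early and the late average.

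**Figure D2:**
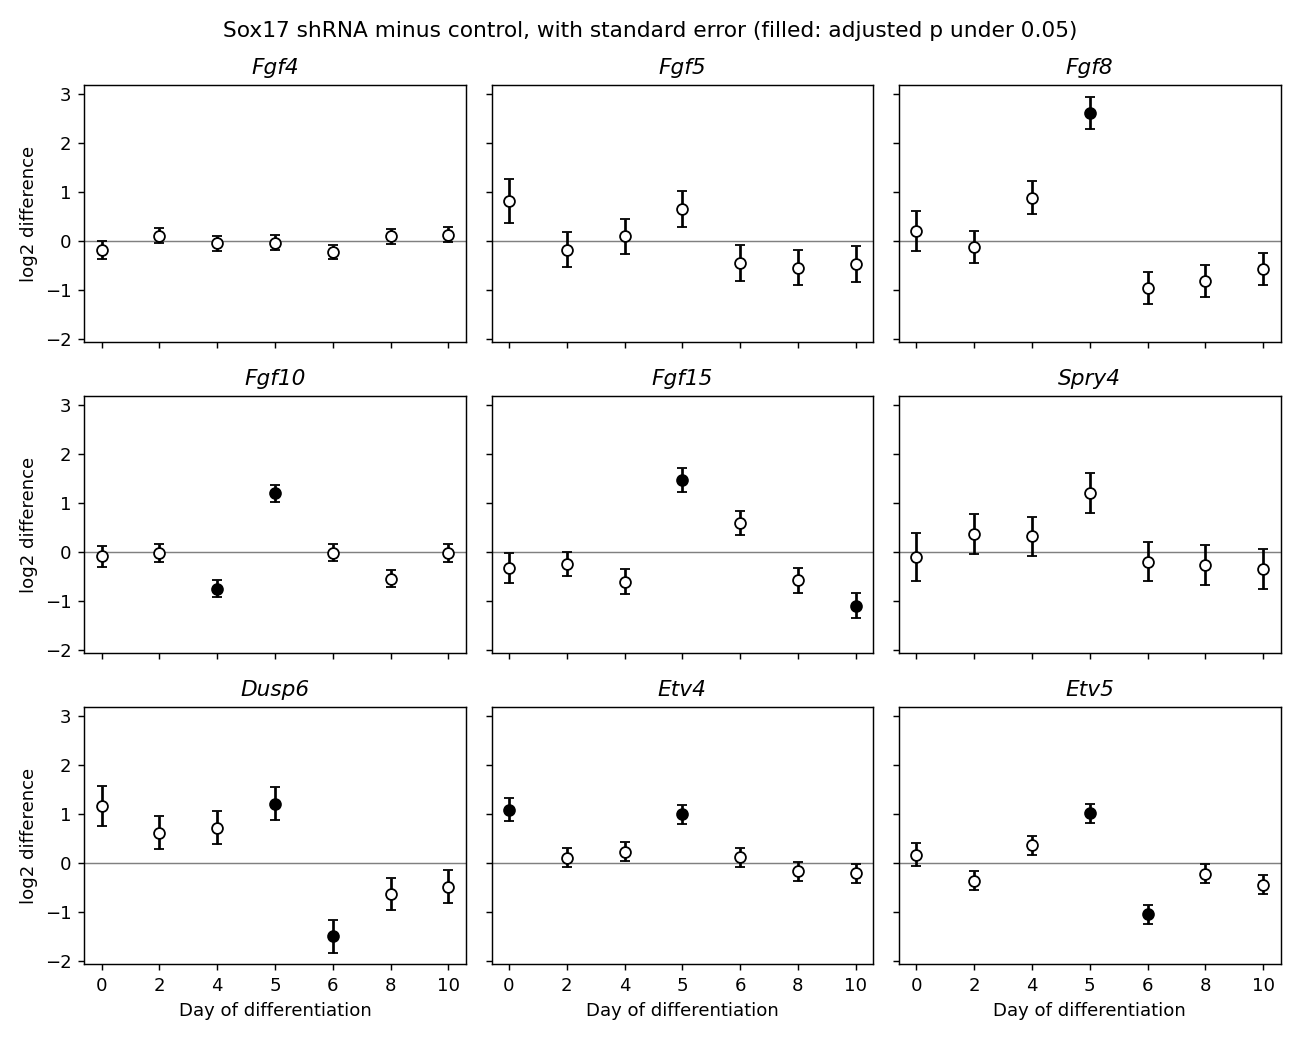
Sox17 shRNA minus control (vertical axes, log2 difference) by day (horizontal axes) for each of the 9 members, with bars of 1 standard error of the limma fit and filled points where the adjusted p was under 0.05. Fgf8, Dusp6 and Etv5 lie above 0 at day 5 (2.62, 1.21 and 1.01) and below 0 at day 6 (-0.97, -1.50 and -1.04).

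On the remaining days few members were called. At day 0, Etv4 was called, at 9.24 on the single Sox17 shRNA array against 8.13 and 8.16 (log2 difference 1.09, SE 0.24, adjusted p = 0.0215), where 1.89% of all genes were called. The call was lost without either control array (adjusted p = 0.0828 and 0.109). Dusp6 read 9.17 there against 8.04 and 7.96, a difference of 1.17 that was not past the threshold (adjusted p = 0.164). The day 0 differences of Etv4 and Dusp6 were about as large as their day 5 differences, while Sox17 read 3.69 at day 0 against 3.75 and 3.92. Whether these day 0 differences bear on day 5 was not tested. At day 2 limma called 0 of 9, with 0 at an unadjusted p under 0.05, where 2.54% of all genes were called. Dusp6 read 10.75 and 10.26 at day 2 against 9.94 and 9.82 (adjusted p = 0.444). On each Sox17 shRNA array of days 0 to 5 Dusp6 lay above both control arrays of that day. At day 4, where 5.14% were called, Fgf10 was the 1 member called, and Fgf8 read 8.00 and 8.43 in the Sox17 shRNA arm against 7.19 and 7.46 (difference 0.89, adjusted p = 0.145). Dusp6 read 10.59 and 10.64 at day 4 against 9.88 and 9.90 (difference 0.73, adjusted p = 0.252). At day 8 limma called 0 of 9, with 3 at an unadjusted p under 0.05, where 4.82% of all genes were called. At day 10, where 10.0% were called, Fgf15 was the 1 member called.

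The other probe sets of Etv5, Fgf5, Spry4 and Etv4 gave the same direction at day 5 as those used, not always past the threshold. Etv5 was called higher on both of its other probe sets, 1420998_at (1.22, adjusted p = 0.0162) and 1450082_s_at (1.08, adjusted p = 0.00656), and at day 6 it was lower on both (-0.93, adjusted p = 0.0884, and -1.03, adjusted p = 0.0103). Fgf5 on 1426186_a_at differed by 0.81 at day 5 (adjusted p = 0.151). The 3 other probe sets of Spry4 differed by 0.20, 0.36 and 0.85, none past the threshold. Etv4 on 1443381_at differed by 0.29 (adjusted p = 0.249). Fgf4 on 1420085_at spanned far more than on the probe set used, from 9.57 and 9.50 in the control arm at day 0 to 4.28 and 5.08 at day 4 (log2 difference -4.85, SE 0.28), against -1.87 on 1450282_at. The size of the Fgf4 fall therefore depends on the probe set, while its arm difference at day 5 was 0.11 and -0.03 on these probe sets. Fgf8, Fgf10, Fgf15 and Dusp6 each had 1 probe set with that single symbol.

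**Figure D3:**
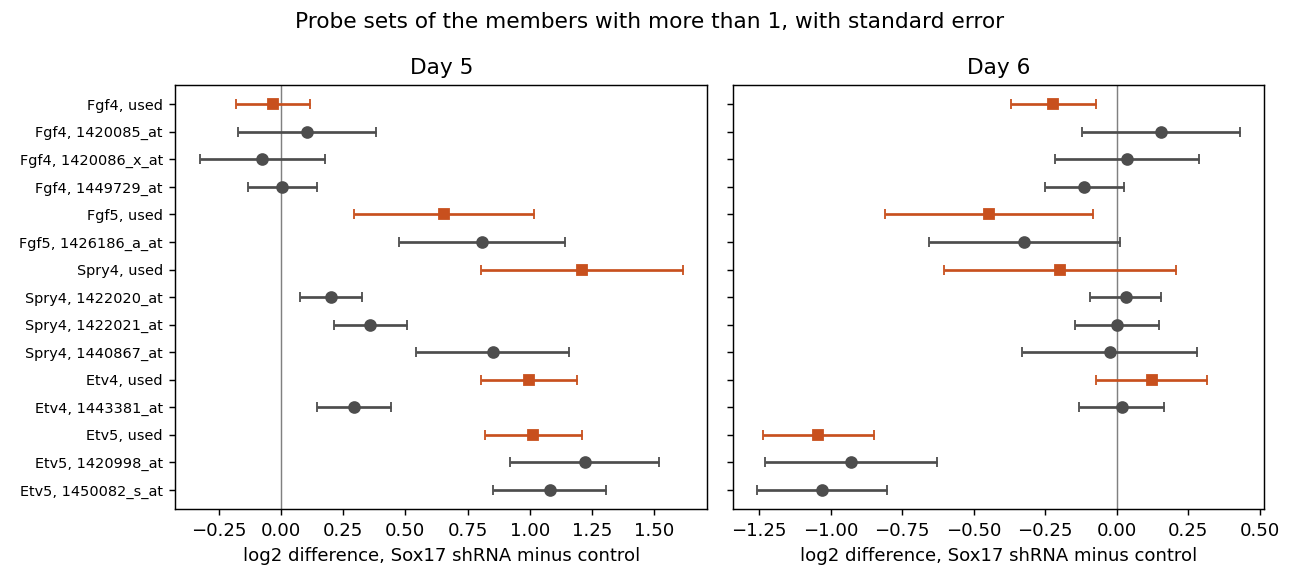
Arm difference (horizontal axes, log2, Sox17 shRNA minus control) at day 5 (left) and day 6 (right) on each probe set of the members that have more than 1. Probe sets are listed on the vertical axis, squares mark those used, and bars are 1 standard error of the limma fit. Etv5 lies above 0 at day 5 and below 0 at day 6 on each of its probe sets.

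Other genes of the pathway were taken from lists of 91 genes, of which 68 were among the genes tested. At day 5, 12 of the 68 (17.6%) were higher in the Sox17 shRNA arm and 4 (5.88%) lower, where 6.15% of all genes were higher and 3.24% lower. Of those higher, 9 were on the lists of feedback inhibitors and of transcripts that ERK raises, and all 4 that were lower were on the list of receptors, co-receptors and carriers. At day 4 there were 5 higher (7.35%) and 1 lower (1.47%), where 3.33% and 1.81% of all genes were. At day 6 there were 2 higher (2.94%) and 3 lower (4.41%), where 2.84% and 2.36% of all genes were. These lists share the arrays with the members and were written with earlier results of the series known.

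Of 7 other Fgf ligands tested, 1 was called at day 5. This was Fgf17, which is expressed with Fgf8 in the streak and midbrain of the mouse embryo. It read 6.16 and 5.03 in the Sox17 shRNA arm against 4.74 and 4.59 (log2 difference 0.93, SE 0.28, adjusted p = 0.0425). At day 4 it read 7.60 and 6.79 against 5.67 and 5.17, without overlap (log2 difference 1.78, SE 0.28, adjusted p = 0.00205).

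Of 19 receptors, co-receptors and carriers, 4 were lower at day 5 and 2 were higher. The receptors Fgfr3 and Fgfr2 were lower (log2 difference -1.17, SE 0.34, adjusted p = 0.0382, and -0.94, SE 0.19, adjusted p = 0.00528), as was Flrt3, a membrane protein that binds Fgf receptors (-1.03, adjusted p = 0.0417). Klb, a co-receptor of endocrine Fgfs, was the fourth (-0.85, adjusted p = 6.70e-04). The heparan sulphate proteoglycan Sdc1 and the heparan sulphate polymerase Ext1 were higher (0.77 and 0.78). The receptors Fgfr1 and Fgfr4 were not called at day 5 (0.53, adjusted p = 0.142, and -0.31, adjusted p = 0.581). Averaged over days 4 to 10, Fgfr1 was higher (0.45, adjusted p = 0.00163) and Fgfr2 lower (-0.28, adjusted p = 0.0216). In the control arm Fgfr2 and Fgfr3 rose from day 4 to day 5, and in the Sox17 shRNA arm both rose from day 5 to day 6, the interval on which 6 members fell. On these intervals 10.2% and 17.0% of all genes were called.

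Of the 13 genes of the Ras and ERK relay tested, limma called 0 at days 4, 5 and 6, with 1, 3 and 3 at an unadjusted p under 0.05, and the median difference was -0.03 at day 5. Of 17 other feedback inhibitors, 4 were higher at day 5 and none lower. These were Rasa3, a Ras GTPase-activating protein (1.19), Dusp2, a phosphatase of ERK (1.13), Il17rd, an Fgf receptor antagonist (1.0), and Spry2, a relative of Spry4 (0.96). Of 12 other transcripts that ERK raises, 5 were higher and none lower. They were led by Ier3, an immediate early gene (2.03, SE 0.45, adjusted p = 0.00876), Elk3, an ETS factor (1.59), and Ccnd1, the cyclin of the G1 phase (1.24), with Myc (1.16) and Ier2 (0.67). The feedback inhibitor Spry1 went the other way, at -0.21 on day 5 (adjusted p = 0.490) and -0.90 on day 6 (adjusted p = 0.00211). Averaged over days 4 to 10 it was -0.58 (adjusted p = 8.58e-06). Rasa3 and Ccnd1 were still higher at day 6 (0.69, adjusted p = 0.0296, and 1.08, adjusted p = 0.00132). Spry2, Il17rd, Sdc1, Ext1, Klb, Myc and Ier2 at day 5 are named beyond the rule of largest differences, after their values were seen. The same holds for Fgfr1 and Fgfr4, and for Spry1, Rasa3 and Ccnd1 at day 6. Eomes, given below, is also named beyond that rule.

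**Figure D4:**
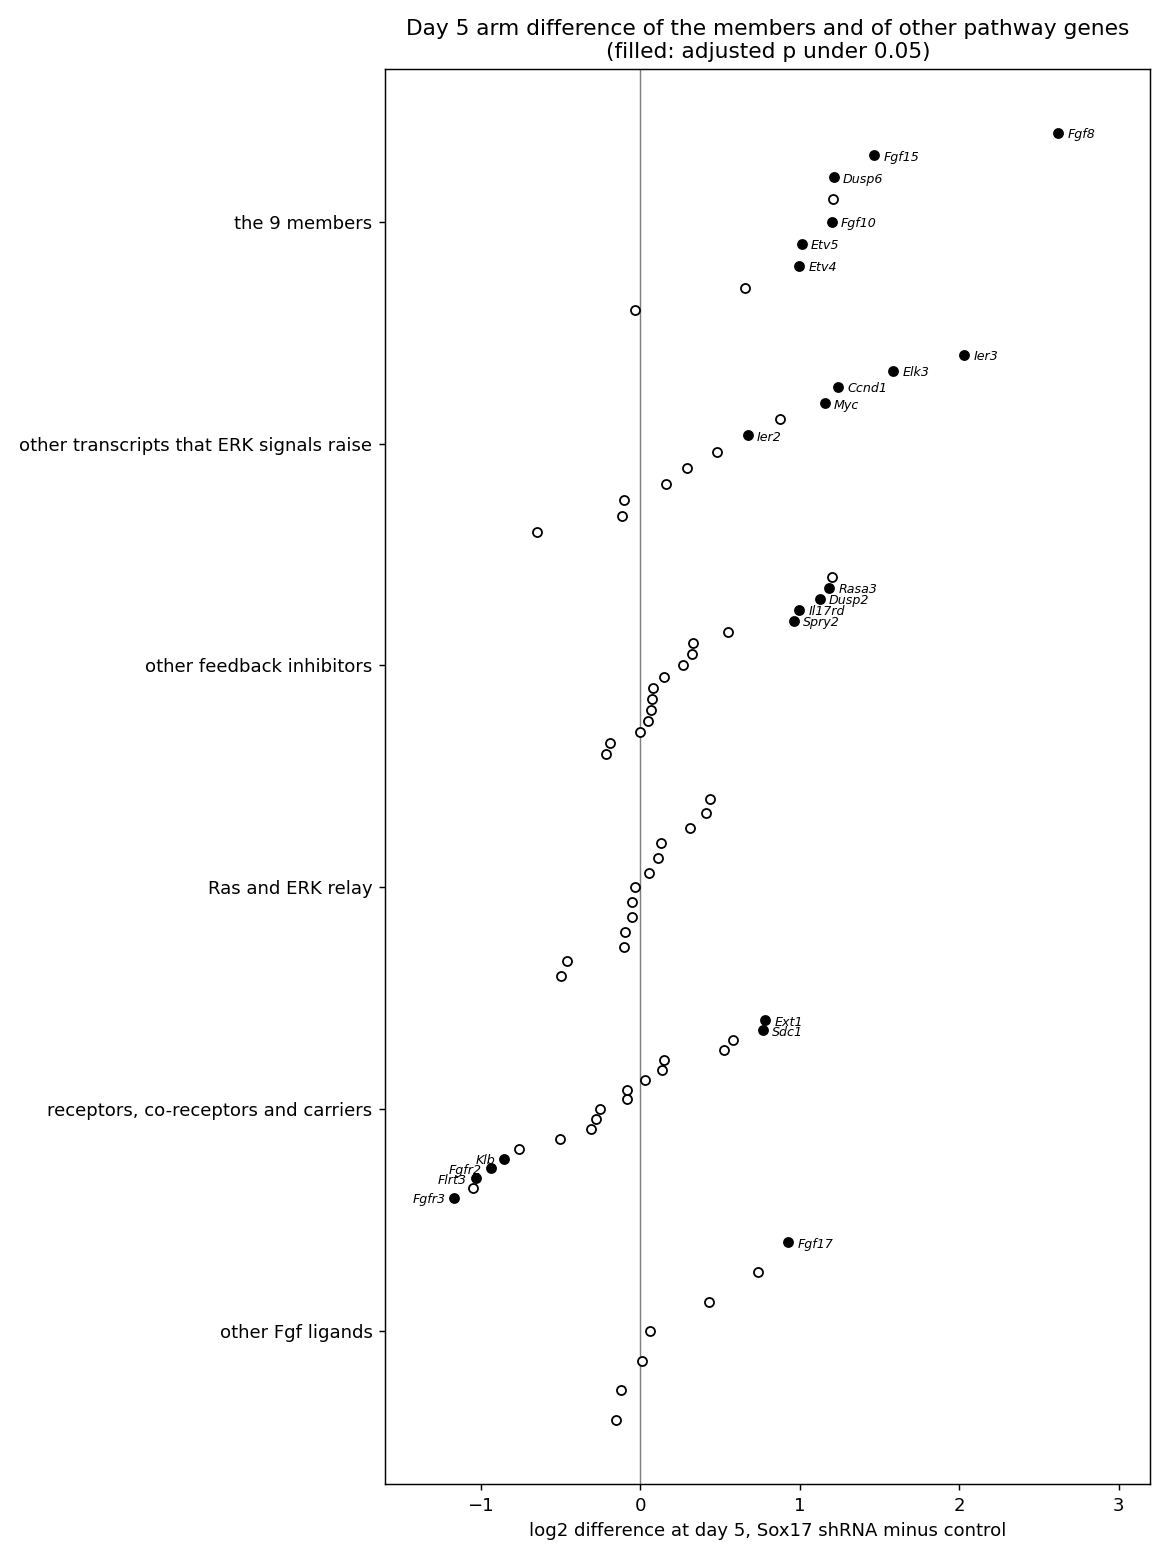
Arm difference at day 5 (horizontal axis, log2, Sox17 shRNA minus control) of the 9 members and the 68 other pathway genes tested, 1 point for each gene, grouped by role on the vertical axis and filled where the adjusted p was under 0.05. The 4 pathway genes called lower are all among receptors, co-receptors and carriers, and the Ras and ERK relay has no filled point.

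Markers of several cell types also differed between the arms at day 5, some higher and some lower, where 6.15% of all genes were called higher and 3.24% lower. Of 12 primitive streak and presomitic genes, 5 were higher in the Sox17 shRNA arm and none lower, and the mean level of the list was 7.26 to 7.65 there against 6.30 to 6.40 in the control arm. Mixl1 and Eomes, transcription factors of the streak, differed by 4.13 and 1.44. In the control arm 5 of the 12 fell from day 4 to day 5, and in the Sox17 shRNA arm 6 fell from day 5 to day 6, which were the intervals on which 6 members fell. Of 10 naive pluripotency genes, 5 were higher at day 5, at a mean of 6.17 to 7.10 against 5.77 to 5.83. Of 10 visceral and parietal endoderm genes, 3 were lower, at 6.87 to 7.52 against 8.37 to 8.45. Of 9 cardiac progenitor genes, 3 were lower, at 6.41 to 7.17 against 7.55 to 7.67. Of 11 definitive endoderm genes, 2 were lower and 1 higher, at 7.62 to 8.66 against 9.02 to 9.03. That list includes Sox17, the targeted gene, so its mean is not independent of the knockdown. Of 8 primed epiblast genes 1 was lower, at 8.34 to 8.39 against 8.72 to 8.75. The lists of cardiac muscle, neural ectoderm, fibroblasts, endothelium and blood each had 1 gene called. At day 6, where 2.36% of all genes were lower, 8 of 9 cardiac muscle genes were, at 5.27 to 5.80 against 9.40 to 9.45. The part of these cell types in the members' differences was not tested.

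Likeness of pattern was described by Pearson's r of the 14 group means, which share arrays and normalization, so that no p is given. Among the members, Spry4 and Etv5 were most alike (r = 0.948), followed by Etv4 and Etv5 (0.909), Etv4 and Spry4 (0.905) and Fgf4 and Etv5 (0.905). Fgf8 and Fgf10 had an r of 0.820. Over all genes tested, the 3 nearest to Fgf8 were Rtl8c (0.970), Mixl1 (0.946) and Gsc (0.945), the last 2 being streak and organizer transcription factors. Those nearest to Fgf5 were Vrtn (0.957), Ppp2r1b (0.955) and Ttll4 (0.954), and those nearest to Fgf10 were Rftn1 (0.954), Ndrg3 (0.899) and Vstm2b (0.887). Those nearest to Fgf4 were Plekhd1 (0.992), Ppef2 (0.991) and Slc9b1 (0.990), and those nearest to Fgf15 were 2700038G22Rik (0.884), Skil (0.835) and Nkx2-3 (0.834). For Spry4 they were Rcc2 (0.981), Zfp598 (0.980) and Spout1 (0.970), for Etv4 Bnip1 (0.957), Nudt8 (0.954) and Supv3l1 (0.953), and for Etv5 Usp7 (0.974), Pus1 (0.972) and Hspa9 (0.972). Dusp6, like Fgf15, had less close neighbours, A930024E05Rik (0.896), 4833439L19Rik (0.861) and Cyria (0.839).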

How the data were processed

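The 27 arrays measured total RNA, which was biotin-labelled after TRIzol and RNeasy isolation, per the labels' protocols. The deposited values are log2 signals that the authors made with RMA, per the submitters' processing notes, whose version is not given in the sources used here, and they run from 2.66 to 14.5. Of 45101 probe sets, 34958 have 1 gene symbol in the platform annotation, 932 have several and 9211 are not listed there. No symbol needed updating. Probe sets above 5.53, the median of all values, on at least 2 arrays were kept (23536 of those with 1 symbol), and 1 was used for each of 13297 genes. limma 3.58.1 in R 4.3.3 fitted 1 mean for each arm and day to all 27 arrays with 13 residual degrees of freedom, eBayes used an intensity trend, and p-values were adjusted over all genes by Benjamini-Hochberg, two-sided, and called under 0.05. A lone day 0 array was assumed to vary like the other groups. The fit was tested on simulated data. For arrays their number limits the precision.

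Genes were named by rule: the members, Sox17, the 3 genes with the highest r for each member, and up to 3 called genes with the largest difference from each pathway list and comparison. The members and lists were chosen with earlier results of these data known. Not all genes of the lists were tested, and the rest were not analysed here. Alternatives were the filter, the moderation, array weights, array medians, the spike-in as covariate, other probe sets, other averages of days, arrays left out and a block. The deviations of same-numbered replicates in the 2 arms correlated with r from 0.0986 to 0.683 over days 2 to 10, highest at day 4, where the number also separates the spike-in levels. Since not every r was over 0.1, the numbers were not taken to pair the arrays.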

Additional observations from a re-analysis of the deposited data

Results flagged for a closer look

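The arm difference of 5 members varied between days 4 and 10 by the moderated F test of the difference itself. The adjusted p was 2.34e-04 for Fgf8, whose difference was 2.62 at day 5 and -0.97 at day 6, and 5.11e-04 for Fgf10, with -0.75 at day 4 and 1.20 at day 5. For Fgf15 the adjusted p was 6.50e-04, with 1.47 at day 5 and -1.10 at day 10. For Etv5 it was 9.21e-04, with 1.01 at day 5 and -1.04 at day 6. Dusp6 had an adjusted p of 0.00642, with 1.21 at day 5 and -1.50 at day 6.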

How the results depend on the processing

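Each group had at most 2 arrays. When each array was left out in turn, the number of members called was 0 at days 0, 2 and 8, 0 to 1 at day 4, 3 to 6 at day 5, 0 to 2 at days 6 and 10 and for the average over days 4 to 10, and 5 to 7 for the F test. Against day 0 in the control arm it was 4 at day 2, 6 to 7 at day 4, 5 to 7 at day 5, 7 to 8 at day 6, 8 at day 8 and 6 to 7 at day 10. Array weights gave 2 at day 0, 0 at day 4 and 2 at day 10. Day 8 gave 1 instead of 0 with the spike-in covariate, without the pair of arrays highest in 3' to 5' difference, and under the replicate block. The replicate block put Etv4 past the threshold of the F test (adjusted p = 0.0443). It kept 6 members at day 5 and 2 at day 6, and the block within day gave 7 at day 5 (with Spry4, adjusted p = 0.0297), 1 at day 8 and 0 at day 0. Days 4 and 5 alone gave 4 members and turned the average of Dusp6 to 0.97 and of Etv5 to 0.69. Days 6, 8 and 10 alone gave 3 and turned that of Fgf8 to -0.79, though on those days only its control day 6 arrays were above the low-value cut. Other probe sets turned some changes in time. Fgf4 on 1449729_at, which is near background, changed by 0.0020 from day 0 to day 6 in the control arm and by 0.31 to day 2 in the Sox17 shRNA arm. Fgf5 on 1426186_a_at changed by -0.0063 to day 8 and -0.12 to day 10 in the control arm. Etv4 on 1443381_at, also near background, changed from day 0 in the control arm by 0.24, 0.015, 0.019, 0.24 and 0.095 to days 4, 5, 6, 8 and 10, and from day 2 to day 4 by 0.43 in the control and 0.42 in the Sox17 shRNA arm. The cause was not tested.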
